A study of Mus musculus with 15 samples.

Results

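Estradiol was set against placebo in the periprostatic fat of male mice that ate the same high-fat diet, in 10 of the 15 RNA sequencing libraries of the series. The members were chosen by their titles alone: 5 libraries titled for high-fat diet with 17β-estradiol (estradiol 1 to 5) and 5 titled for high-fat diet with placebo (placebo 1 to 5), each from 1 mouse. All 10 mice were C57BL/6J males that ate a diet with 60 kcal% fat from 6 weeks of age. After 12 weeks a pellet was placed under the skin, and feeding went on for 8 weeks until the mice were killed at 26 weeks of age. The estradiol pellet held 0.25 mg of hormone for release over 60 days, and the placebo pellet is described no further in the labels. The labels mention no gonadectomy in either group. The other 5 mice (LFD) ate 10 kcal% fat and received no implant; their levels stand beside some genes, and their libraries share the estimate of spread.

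Estradiol acts mainly through estrogen receptor alpha, a nuclear receptor encoded by Esr1 that binds DNA and changes the transcription of target genes such as Pgr and Greb1. White fat holds adipocytes that store triglyceride and secrete hormones such as leptin and adiponectin. In obesity it also gathers macrophages that take up lipid and enlarge their lysosomes. Values are FPKM (fragments mapped to a gene, divided by transcript length and by the fragments mapped in the library), divided further by a factor per library from the median of its ratios to the other libraries, and are called scaled FPKM. Fold changes are differences of log2(scaled FPKM + 1), which understates the change of low genes.

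Adipocyte genes were high in every library, with Adipoq, which encodes adiponectin, at 58.4 to 187 scaled FPKM in the 10. The defining genes of prostate and seminal vesicle were at or near 0, with 9 of the 18 listed at 0 in all 10 libraries and a summed level of 0.197 to 0.633 with placebo and 0.131 to 0.557 with estradiol. Deposited FPKM summed to 34544 to 105910 in the placebo libraries and 37561 to 60725 in the estradiol libraries. A scaled FPKM of 1 in a transcript of 2 kb stood for an estimated 35.0 to 224 fragments with placebo and 36.7 to 96.7 with estradiol. The file names place all 5 estradiol libraries and placebo 4 and 5 on lane 6 of the sequencer, and placebo 1 to 3 and all LFD libraries on lane 5. The difference within lane 6 (5 against 2 libraries) is therefore given beside the list counts, as the fit with lane as a term. The microRNA gene Mir6236 held 10.2% to 49.9% of the FPKM sum of the 10 libraries. Within lane 6 its share was 10.2% in both placebo libraries and 15.7% to 49.9% in the estradiol libraries, and on lane 5 it was 25.1% to 47.9% with placebo. Its log2 change was 0.25 (adjusted p = 0.78), but 1.65 with lane as a term (adjusted p = 0.048). Nothing in the labels says whether mice shared a cage or an extraction day.

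Of 5615 genes tested, 1706 (30.4%) differed between estradiol and placebo at an adjusted p below 0.05 in limma. Estradiol was higher for 805 genes (14.3% of those tested) and lower for 901 (16.0%). Most differences were small: 1016 of the 1706 were below 0.5 on the log2 scale. The large ones lay mainly on the lower side, since 146 of the 196 genes that changed by more than 2-fold fell and 50 rose. The groups did not overlap for 1193 genes (21.2%), 564 of them higher (10.0%) and 629 lower (11.2%) with estradiol. The split depends on the scaling: FPKM as deposited gave 13 genes higher and 263 lower, with all tested genes at a median of -0.27, and a constant sum per library gave 259 higher and 569 lower. The part of Mir6236 in these differences was not tested. The list counts that follow depend on scaling and lane too: of 33 lists, the number of members called in the list's main direction moved by more than 1.5 times in 26 on FPKM as deposited, in 16 with a constant sum and in 23 with lane as a term. With lane as a term, 317 genes were higher (5.65%) and 394 lower (7.02%). All 1706 genes kept their sign there, 692 of them also passed the test, and so did 179 of the 196 with more than a 2-fold change. Of the 104 called genes named here and in the closing observations, 89 passed with lane as a term. This share is partly set by the naming rule, which asked for that pass in the largest rises and falls. It is no measure of how called genes fare in general. The 15 that did not were Apoe, Ccnd3, Cxcl12, Ephx1, Igf1, Lcn2, Mitf, Nnat, Pkm, Pparg, Scd1, Sfrp5, Stab1, Sult1e1 and Tfe3.

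**Figure D1:**
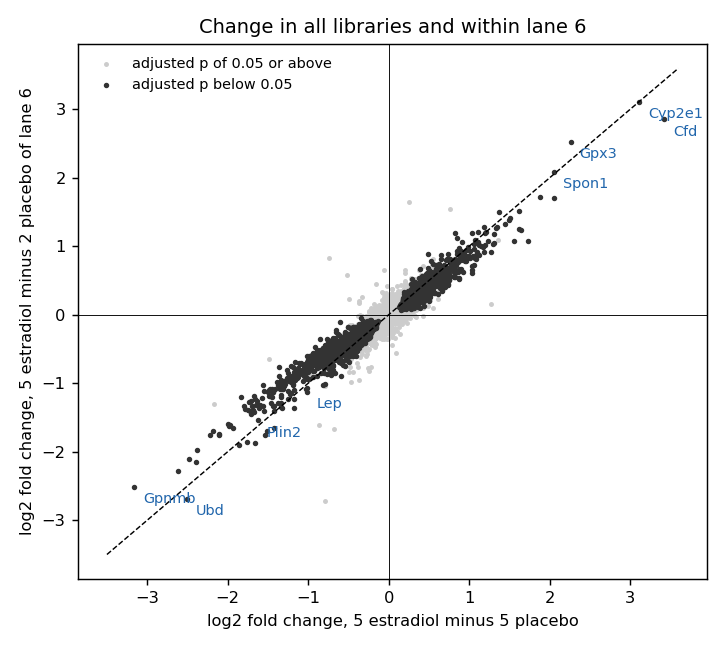
Each point is 1 of 5615 tested genes, with its log2 fold change over all 10 high-fat libraries on the x axis and its change within lane 6 on the y axis (5 estradiol against 2 placebo libraries); the dashed line marks equal values. The 1706 genes with an adjusted p below 0.05 (black) have the same sign on both axes, and many of the lower genes lie nearer 0 within lane 6. The axes share the 5 estradiol and the 2 placebo libraries of lane 6 and are not independent.

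On the first principal component, which held 60.1% of the variance of the 10 libraries, placebo lay between -21.1 and -4.28 and estradiol between 6.58 and 18.6. The groups did not overlap on this axis. Placebo 4 was the placebo library nearest the estradiol group, and estradiol 1 was the estradiol library nearest placebo. The second component held 10.3%.

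**Figure D2:**
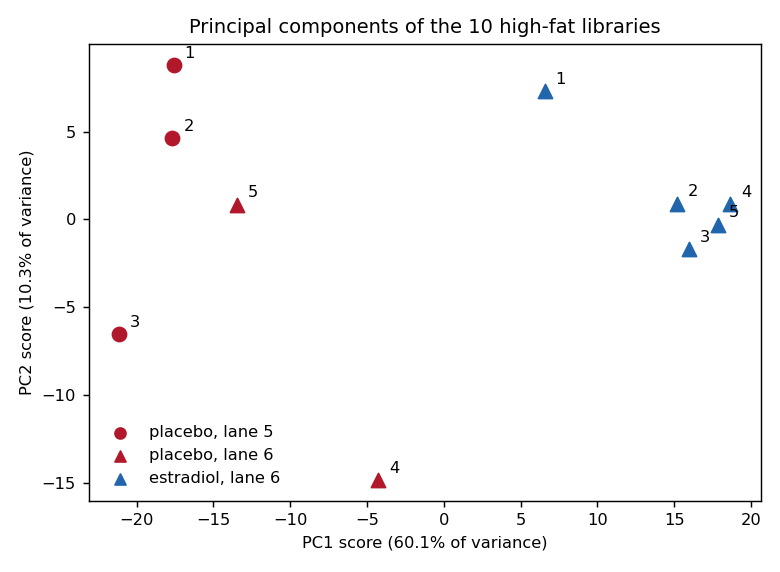
Scores of the 10 high-fat libraries on the first and second principal components (60.1% and 10.3% of the variance), with placebo in red, estradiol in blue, circles for lane 5 and triangles for lane 6. Placebo 4 and 5, the triangles in red, lie on the placebo side of the first component.

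Some known readouts of estrogen action rose in this fat, several of them at very low levels, and others did not pass the test. Pgr encodes the progesterone receptor and lies on chromosome 9 at 8899833 to 8968611 (mm10). Its scaled FPKM was 0.00771, 0, 0.00757, 0 and 0.00137 in placebo 1 to 5 and 0.0846, 0.0707, 0.0655, 0.0295 and 0.0516 in estradiol 1 to 5. All 5 estradiol libraries were above all 5 placebo libraries. Greb1, an estrogen-induced cofactor of the receptor (chromosome 12, 16670615 to 16800886), was at 0, 0, 0, 0.00213 and 0.00478 with placebo and at 0.0321, 0.0495, 0.0573, 0.00644 and 0.0245 with estradiol, again without overlap. Esr1 itself (chromosome 10, 4611593 to 5005614) was at 0.112, 0.321, 0.263, 0.199 and 0.298 with placebo and at 0.698, 0.515, 0.636, 0.811 and 0.537 with estradiol. The LFD mean of Esr1, without an implant, was 0.712, near its estradiol mean of 0.639, while the LFD means of Pgr and Greb1 were 0.00135 and 0.00236. Each of these genes gave an exact two-sided permutation p of 0.0079, the smallest that 5 against 5 libraries allow, and 0.020 adjusted over the 15 genes tested this way. Esr1 was added to those 15 after its values were seen. Ltf, which encodes lactoferrin, a known estrogen target, had a mean of 0.00537 with placebo and 0.0233 with estradiol (exact permutation p = 0.079, adjusted 0.17), and Prlr, the prolactin receptor gene, of 0.356 and 0.611 (exact permutation p = 0.12, adjusted 0.22). Their LFD means were 0.00505 for Ltf and 1.18 for Prlr. Esr2, the other nuclear estrogen receptor, was above 0 in placebo 4 and estradiol 3 alone (exact two-sided permutation p = 1), and Gper1, a membrane receptor, had a mean of 0.146 with placebo and 0.119 with estradiol (exact permutation p = 0.40). Akr1cl, an aldo-keto reductase gene (chromosome 1, 65012689 to 65032759), was listed at 0 in all placebo and all LFD libraries and at 0.558, 5.30, 3.79, 9.39 and 4.66 in estradiol 1 to 5. It is 1 of 5 genes, among 23995 listed symbols, at 0 in all placebo libraries and above 0 in all estradiol libraries, and was chosen after its values were seen. The others (Mmd2, Rnase2a, Npy2r and Stxbp5l) stayed below 1 scaled FPKM except Mmd2 in estradiol 4, at 1.74. The reverse pattern, 0 in all estradiol libraries and above 0 in all placebo libraries, held for 6 genes, all below 1 scaled FPKM.

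Among estrogen receptors, cofactors and classical targets, 6 of 14 tested genes rose and 1 fell, with a median log2 change of 0.31 beside 0.0082 over all 5615 genes. The fit with lane as a term gave 3 that rose and 1 that fell (median 0.25), a constant sum gave 2 that rose, and FPKM as deposited gave 0 (median 0.015). Igfbp4, which binds insulin-like growth factors and lies on chromosome 11 at 99041244 to 99054392, was at 9.49, 11.5, 8.76, 10.7 and 9.60 with placebo and at 20.1, 19.6, 24.3, 21.8 and 23.7 with estradiol. Nrip1, a corepressor of nuclear receptors, was at 2.22, 2.40, 1.74, 2.28 and 2.26 with placebo and at 4.90, 5.08, 4.00, 7.32 and 4.06 with estradiol. Neither gene overlapped between the groups, and the log2 changes were 1.06 (SE 0.10, adjusted p = 2.9e-06) and 0.91 (SE 0.14, adjusted p = 0.00017). Igf1, the growth factor itself, rose by 0.40 (SE 0.08) and the chemokine gene Cxcl12 by 0.52 (SE 0.14). The member that fell was Ctsd, a lysosomal protease, which is described with the lysosome below. A full estrogen response element, the letters GGTCA and TGACC around a spacer of any 3 bases, which reads alike on both strands, was in 21 of 32851 RefSeq promoters (0.0639%, 250 bases before the start) and in 0 of the 4222 tested genes with such a promoter. At so low a rate the 0 cannot set these genes apart from others. Sites with other letters or further from the start were not searched.

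Some other genes of steroid hormone response and conversion moved. The glucocorticoid receptor gene Nr3c1 rose by 0.47 (SE 0.07), while Mt2, a metallothionein that binds metal ions, fell by 1.34 (SE 0.21). Sult1e1, which encodes the sulfotransferase that inactivates estrogens, fell from 2.15 ± 0.83 to 0.884 ± 0.24 scaled FPKM (SD, n = 5 each; log2 change -0.71, SE 0.20, adjusted p = 0.012). Its groups overlapped, since placebo 4 at 1.11 lay below estradiol 1 at 1.14, and within lane 6 the test was not passed (adjusted p = 0.20).

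**Figure D3:**
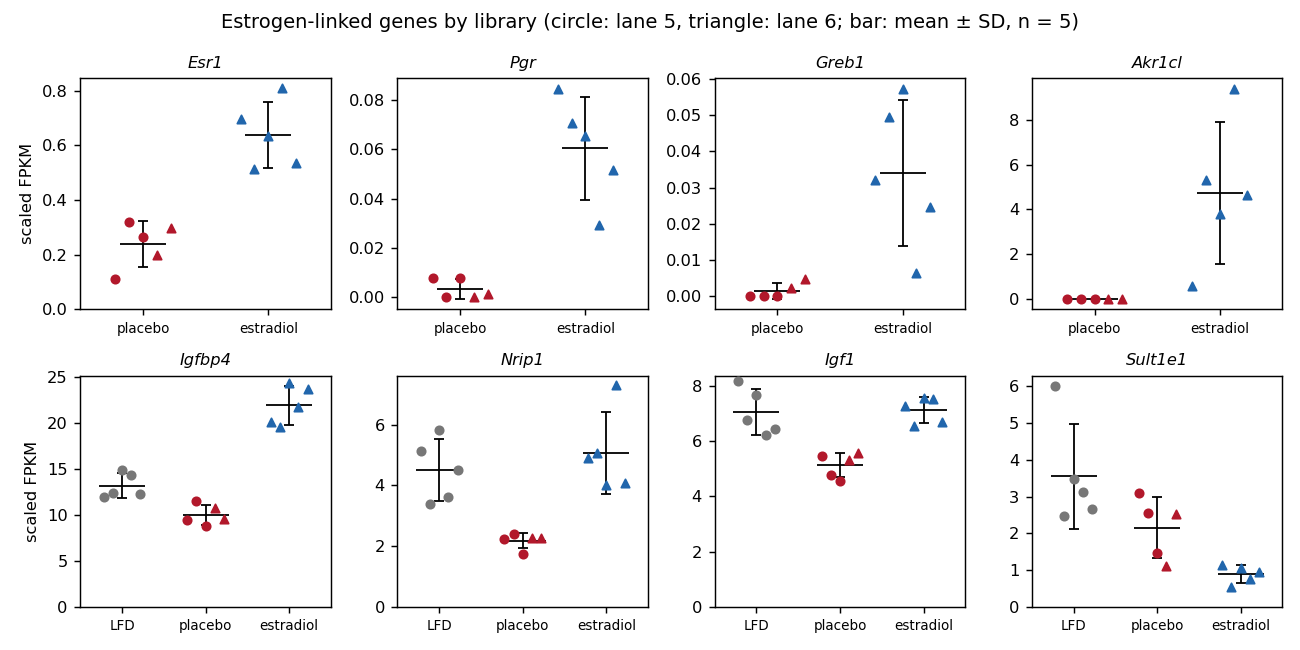
Scaled FPKM by library for 8 genes, estrogen-linked except Akr1cl, 1 panel each, with LFD in grey where shown, placebo in red, estradiol in blue, circles for lane 5, triangles for lane 6 and bars for the mean ± SD (n = 5). Pgr, Greb1, Esr1, Akr1cl, Igfbp4, Nrip1 and Igf1 show no overlap between placebo and estradiol, and Sult1e1 does.

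The genes that rose most by the naming rule were led by Cfd and Cyp2e1, followed by Gpx3, Spon1 and Car3. The rule took only genes whose groups did not overlap and that passed with lane as a term. Both traits were thus set by the choice for the largest rises and falls, here and below. Gpx3 encodes the secreted glutathione peroxidase that fat releases into plasma. It was at 14.0, 13.3, 8.86, 6.32 and 11.3 scaled FPKM in placebo 1 to 5 and at 37.4, 56.2, 47.4, 87.0 and 50.3 in estradiol 1 to 5 (log2 change 2.26, SE 0.22, adjusted p = 4.0e-06). Spon1, which encodes the matrix protein spondin 1, was at 0.432, 0.419, 0.331, 0.311 and 0.381 with placebo and at 3.45, 6.33, 4.60, 5.78 and 3.98 with estradiol (2.06, SE 0.11, adjusted p = 1.7e-08). The ranges of both genes were far apart. The highest LFD library was at 24.9 for Gpx3 and 0.483 for Spon1, so all 5 estradiol libraries lay above all LFD libraries in both genes.

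Car3, the carbonic anhydrase that is abundant in fat, was at 154, 215, 234, 390 and 226 with placebo and at 728, 952, 1075, 1105 and 1062 with estradiol. Mettl7a1, a lipid-droplet methyltransferase gene, went from 3.95 ± 0.65 to 17.6 ± 5.2 (SD, n = 5 each). Placebo 4 was the highest placebo library for both genes. The others named by the rule were Retn, Mgl2, Adrb3, Ces1d, Irs1, Thrsp, Gpam, Gas6 and Smoc1, with log2 changes of 1.35 (Smoc1) to 1.65 (Retn).

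Mature adipocyte genes were higher with estradiol: 15 of 26 tested rose and 2 fell, with a median of 0.53, and 9 rose and 2 fell with lane as a term (median 0.33). A constant sum gave 10 that rose and FPKM as deposited 3. In whole tissue, here and in every list of 1 cell type that follows, a change in the number of cells and a change in RNA per cell cannot be told apart. Adipoq was at 58.4, 71.3, 73.4, 116 and 81.5 with placebo and at 139, 145, 165, 187 and 170 with estradiol (log2 change 1.03, SE 0.17, adjusted p = 0.00023). Placebo 4 was the placebo library nearest the estradiol range, and the groups did not overlap. Retn, which encodes resistin, went from 31.7 ± 11 to 101 ± 26, and Adrb3, the beta-3 adrenergic receptor through which catecholamines start lipolysis, from 1.49 ± 0.86 to 6.52 ± 1.8. The 2 members that fell were Lep and Gpd1. Lep, which encodes leptin, was at 44.5, 59.1, 46.9, 62.4 and 52.4 with placebo and at 16.3, 27.97, 31.3, 23.1 and 33.4 with estradiol (-1.01, SE 0.20, adjusted p = 0.0014) and so moved against Adipoq. Gpd1, the glycerol-3-phosphate dehydrogenase, fell by 0.79 (SE 0.23, adjusted p = 0.018).

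Secreted adipokines went both ways, with 9 of 20 tested genes higher and 5 lower (median 0.17, and -0.16 on FPKM as deposited); with lane as a term 4 were higher and 3 lower (median 0.06). Those that rose included Retn, Adipoq, Cfd (adipsin) and Igf1. Those that fell included Lep, Sfrp5, a secreted inhibitor of Wnt signalling, Metrnl and Lcn2. Lcn2, the iron-siderophore binding lipocalin, fell by 1.36 (SE 0.25). Adipose enlargement genes, which mark growing fat, had 4 lower and 1 higher of 11 tested (median -0.44), and 3 lower and 0 higher with lane as a term. The 4 were Mest, Trp53inp2, Sfrp5 and Vldlr, and the 1 that rose was Nnat, by 1.04 (SE 0.31).

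Genes of lipid droplets and lipolysis also split. Of 17 tested, 7 rose and 2 fell (median 0.39), and with lane as a term 5 rose and 2 fell (median 0.21). FPKM as deposited gave 1 that rose. Plin2, which coats small droplets in many cell types, macrophages among them, was at 47.1, 49.4, 45.0, 41.4 and 43.7 with placebo and at 15.0, 14.8, 14.3, 13.8 and 12.0 with estradiol. The groups were tight and far apart (-1.63, SE 0.14, adjusted p = 2.1e-06). Plin1, the droplet coat of mature adipocytes, went the other way, at 19.7, 20.1, 20.9, 30.1 and 21.5 with placebo and at 36.5, 36.4, 39.9, 38.5 and 37.6 with estradiol (0.74, SE 0.12, adjusted p = 0.00027). Hilpda, an inhibitor of the lipase encoded by Pnpla2, fell by 0.70 (SE 0.11), and Pnpla2 rose by 0.94 (SE 0.17). Pde3b, through which insulin restrains lipolysis, rose by 0.75 (SE 0.12).

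De novo lipogenesis, the making of fatty acids from sugar, had 7 higher and 0 lower of 18 tested genes (median 0.42), and 3 higher with lane as a term (median 0.19). A constant sum gave 5 and FPKM as deposited 0. Thrsp, which promotes lipogenesis, was at 6.30, 8.14, 7.58, 9.05 and 7.86 with placebo and at 14.8, 37.7, 27.5, 31.9 and 14.6 with estradiol, with a wide spread. Mlxipl, which encodes the glucose-sensing factor ChREBP, rose by 0.76 (SE 0.16). The desaturase gene Scd1 rose by 0.82 (SE 0.20), from 370.5 ± 98 to 639 ± 71. Fasn, the fatty acid synthase, had a mean of 17.4 ± 4.1 with placebo and 29.6 ± 12 with estradiol, overlapped between the groups and did not pass the test (adjusted p = 0.11). In triglyceride assembly 3 of 12 rose and 1 fell, and the median was 0.14 but -0.10 with lane as a term, where 2 rose and 1 fell. Gpam, which adds the first fatty acid to glycerol phosphate, was at 4.16, 2.87, 2.42, 3.61 and 3.67 with placebo and at 6.82, 11.9, 11.0, 13.3 and 11.6 with estradiol (1.44, SE 0.17, adjusted p = 2.0e-05). The LFD mean of Gpam was 6.64.

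Insulin signalling genes had 10 higher and 3 lower of 22 tested (median 0.25), and with lane as a term 6 higher and 1 lower (median 0.14). A constant sum gave 4 higher and FPKM as deposited 1 (median -0.05). Irs1, the docking protein that links the insulin receptor to its kinases (chromosome 1, 82233101 to 82291416), was at 0.657, 0.634, 0.552, 0.797 and 0.796 with placebo and at 2.80, 3.90, 3.58, 5.57 and 3.44 with estradiol. No placebo library came near the estradiol range (log2 change 1.50, SE 0.12, adjusted p = 8.9e-07), and the LFD mean was 2.07. Slc2a4, the insulin-responsive glucose transporter GLUT4, was at 1.38, 1.54, 1.37, 2.55 and 1.44 with placebo and at 3.55, 3.67, 3.49, 3.28 and 3.89 with estradiol (0.80, SE 0.13, adjusted p = 0.00030). Foxo1, a transcription factor that insulin signalling holds out of the nucleus, rose by 0.41 (SE 0.06), and Grb10, an adaptor that restrains the insulin receptor, by 0.61 (SE 0.10). Grb14, a related adaptor, fell by 0.60 (SE 0.14).

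Catabolism of branched chain amino acids, a pathway that adipocytes run in mitochondria, had 18 higher and 0 lower of 21 tested genes (median 0.51). With lane as a term 4 rose and the median was 0.38, a constant sum gave 10, and FPKM as deposited gave 0 (median 0.19). Acadsb, a short-chain acyl-CoA dehydrogenase of the isoleucine branch, rose by 1.08 (SE 0.13), and Aldh6a1, of the valine branch, by 1.07 (SE 0.15). Ivd, the dehydrogenase of the leucine branch, went from 1.99 ± 0.70 to 4.34 ± 0.40. Other mitochondrial lists moved little: 4 of 25 tricarboxylic acid cycle genes and 4 of 48 nuclear oxidative phosphorylation genes rose and 0 fell, with medians of 0.22 and 0.17, which were -0.12 and -0.17 on FPKM as deposited. These small counts hung on single libraries: leaving out placebo 4 gave 8 and 10, and leaving out estradiol 3 or 4 gave 1 for oxidative phosphorylation. With lane as a term 0 of either list passed the test, beside 12.7% of all genes. That fit rests on placebo 4 and 5. Oxidative phosphorylation genes summed to 576 scaled FPKM in placebo 4, 397 in placebo 5 and 367 to 460 in placebo 1 to 3. Cpt1a, which admits fatty acids to mitochondria, fell by 0.59 (SE 0.10), while 3 of 22 fatty acid oxidation genes rose (1 without placebo 2, 6 without placebo 4, and 0 with lane as a term). That count is near the 14.3% of all tested genes that rose. Ucp1, the uncoupling protein of brown and beige fat, varied between libraries of the same group, from 0 to 26.6 with placebo and from 0.0161 to 4.96 with estradiol. The brown and beige list summed to 73.1 in placebo 4 and 40.1 in placebo 3, and to 6.8 to 8.3 in placebo 1, 2 and 5. It summed to 8.84 to 30.6 with estradiol. The part of placebo 4 in the counts with lane as a term was not tested. Adipogenic transcription factors had 9 higher and 0 lower of 16 tested (median 0.37). Under lane as a term or a constant sum 4 rose, and on FPKM as deposited 0 (median 0.06). The list was led by Ebf1 at 0.64 (SE 0.07) and Ebf2 at 0.49 (SE 0.06). Pparg, the master factor of fat cells, rose by 0.54 (SE 0.17, adjusted p = 0.023) but did not pass within lane 6 (adjusted p = 0.35).

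Cytochrome P450, glutathione transferase and related detoxifying genes had 15 higher and 1 lower of 27 tested (median 0.48), and 11 higher with lane as a term (median 0.44). A constant sum gave 12 and FPKM as deposited 2. Besides Cyp2e1 these included Gsta3, a glutathione transferase that went from 1.02 ± 0.42 to 4.11 ± 1.2, and Ces1d, a carboxylesterase that also hydrolyses triglyceride, from 11.4 ± 6.2 to 33.0 ± 6.6. Gstt1 rose by 0.90 (SE 0.13) and Fmo1, a flavin monooxygenase, by 1.08 (SE 0.15). Ephx1, an epoxide hydrolase, was the 1 that fell, by 0.49 (SE 0.16). Antioxidant genes split, with 8 higher and 5 lower of 24 (median -0.15). Lane as a term left 2 higher and 2 lower (median -0.03), a constant sum gave 2 higher and FPKM as deposited 1. Cat, which encodes catalase, rose by 0.97 (SE 0.16), while Hmox1, the heme oxygenase, fell by 1.25 (SE 0.15) and Srxn1 by 0.45 (SE 0.06).

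**Figure D4:**
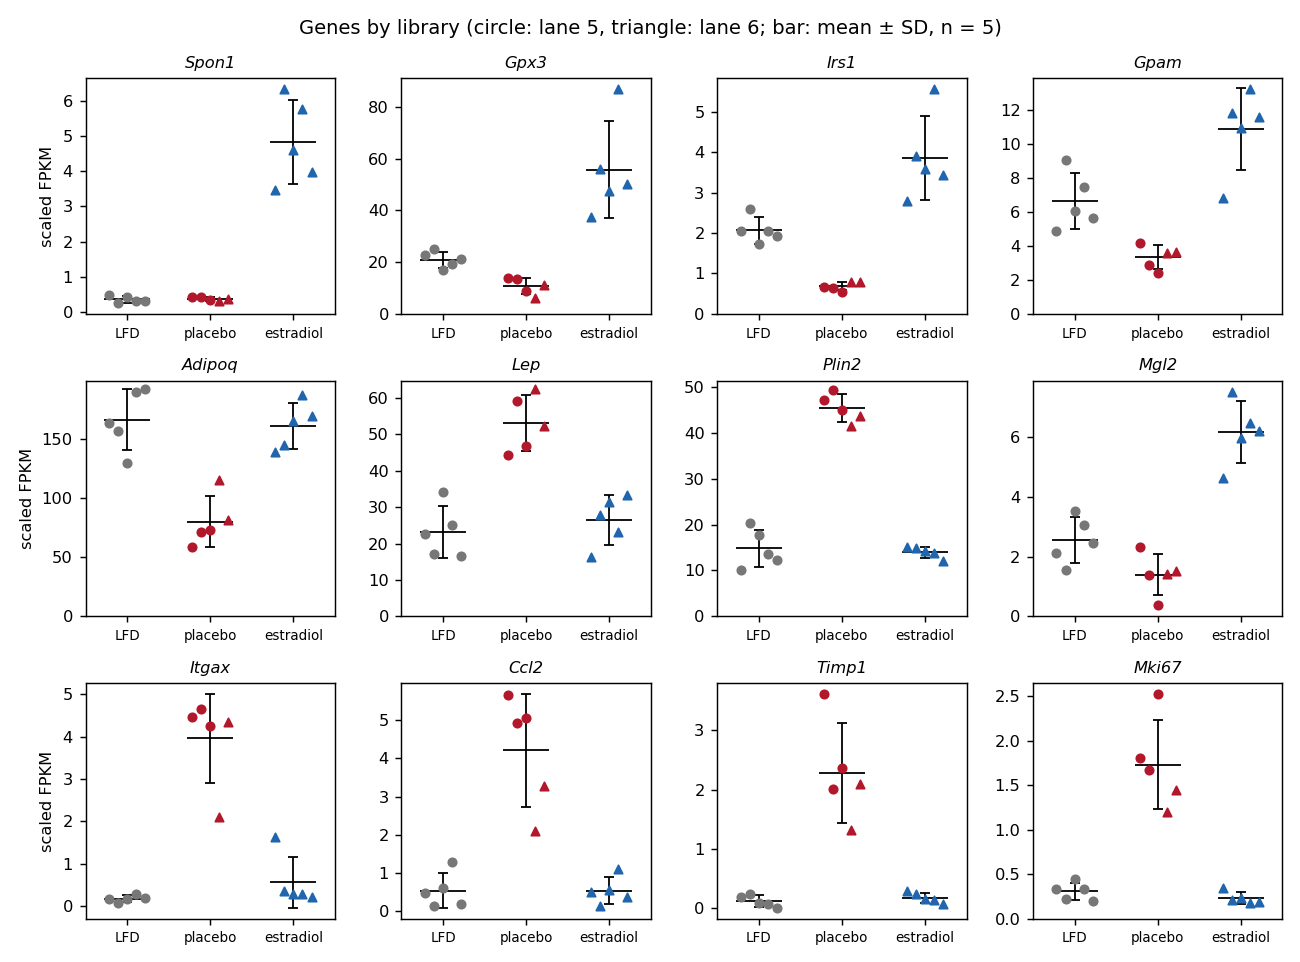
Scaled FPKM by library for 12 genes, 1 panel each, with LFD in grey, placebo in red, estradiol in blue, circles for lane 5, triangles for lane 6 and bars for the mean ± SD (n = 5). In every panel the placebo and estradiol points are apart, which the naming rule asked of Spon1, Gpx3, Irs1, Gpam and Mgl2. For Spon1 all estradiol libraries also lie above all LFD libraries, and for Plin2 the placebo libraries stand alone.

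Macrophage genes were among the largest falls. Of 22 tested genes of lipid-associated macrophages, 17 fell and 2 rose (median -1.50, and -1.20 with lane as a term). Of 19 general macrophage genes 18 fell and 0 rose (median -1.18), but 10 fell with lane as a term or within lane 6 alone (median -0.84 with the term). The list had a summed level of 221 to 640 scaled FPKM with placebo and 93.3 to 219 with estradiol. Itgax, which encodes the integrin CD11c of inflammatory fat macrophages, was at 4.45, 4.65, 4.24, 2.11 and 4.35 with placebo and at 1.64, 0.367, 0.278, 0.288 and 0.225 with estradiol. The groups came near each other through placebo 4 and estradiol 1, but did not overlap (-1.71, SE 0.195, adjusted p = 1.4e-05). Mmp12, the macrophage elastase, was at 18.1, 17.8, 14.4, 7.43 and 14.5 with placebo and at 8.79, 1.18, 1.03, 1.04 and 0.489 with estradiol, so that estradiol 1 lay above placebo 4. The LFD means were 0.178 for Itgax and 0.0836 for Mmp12. Itgax met the filter on level through the placebo libraries, so that a call could hardly be other than lower. Ubd, a ubiquitin-like modifier induced by inflammatory cytokines, fell in each estradiol library, from 10.1, 13.4, 12.4, 15.0 and 14.7 with placebo to 1.47, 0.769, 1.31, 1.12 and 3.28 (-2.50, SE 0.18, adjusted p = 8.1e-07).

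Genes of resident-type macrophages went the other way, with 12 of 18 tested higher and 1 lower. Their median of 0.58 was 0.61 with lane as a term, where 7 rose and 0 fell. A constant sum also gave 7 and FPKM as deposited 1. Without estradiol 1, 7 of the 18 passed as higher. Mgl2, a galactose lectin of the CD301 group, was at 2.31, 1.38, 0.366, 1.42 and 1.52 with placebo and at 4.64, 7.52, 5.98, 6.47 and 6.21 with estradiol (1.62, SE 0.20, adjusted p = 2.5e-05). The LFD mean was 2.54. Gas6, a ligand of receptors that clear dying cells, went from 4.43 ± 1.2 to 13.1 ± 3.4. Fcna, a lectin of the complement system, rose by 1.04 (SE 0.19), and Cd163, the hemoglobin scavenger receptor, by 0.61 (SE 0.12). Stab1 was the 1 that fell, by 0.39 (SE 0.14).

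Lysosomal and proton pump genes fell together: 35 of 42 tested were lower and 0 higher (median -0.61). With lane as a term 20 fell and the median was -0.46, a constant sum gave 27 and FPKM as deposited 9. They spanned proteases, pump subunits and lipid-handling enzymes, all of which macrophages hold in large amounts and other cells hold as well. Ctss, the macrophage cathepsin S, was at 40.9, 53.9, 61.9, 33.0 and 44.1 with placebo and at 19.95, 8.27, 7.97, 4.68 and 4.52 with estradiol. Atp6v0d2, a pump subunit of macrophages and osteoclasts, was at 7.21, 9.30, 6.80, 2.99 and 6.55 with placebo and at 1.70, 0.132, 0.165, 0.286 and 0.148 with estradiol. In both genes estradiol 1 was the highest of its group and placebo 4 the lowest. Atp6v1a, a pump subunit found in all tissues, was at 5.10, 4.98, 5.64, 4.04 and 5.08 with placebo and at 2.84, 2.80, 2.37, 2.63 and 2.47 with estradiol (-0.72, SE 0.07, adjusted p = 6.8e-06). Ctsd, the aspartic protease noted above as an estrogen target, was at 115, 140, 132, 93.2 and 117 with placebo and at 58.3, 52.1, 50.3, 45.2 and 51.1 with estradiol (-1.19, SE 0.12, adjusted p = 4.8e-06). Neither overlapped.

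The promoters of some of these genes carry the letters bound by the factor family of Mitf, Tfeb and Tfe3, which drives lysosomal genes. RefSeq promoters (GRCm38.p6, 250 bases before the start site) were searched on both strands for TCACGTGA, an E-box of the lysosomal CLEAR type, and for TCACATGA, the M-box of Mitf. TCACGTGA and TCACATGA cannot match at the same place. TCACGTGA was in 0.785% of all 32851 promoters, 2.25% of the 4222 tested genes with a promoter, 2.41% of those called lower and 1.64% of those called higher. Of the 32 tested lysosomal genes with a promoter, 4 (12.5%) held it. TCACATGA was in 0.846% of all promoters, 0.758% of tested genes, 1.36% of those called lower, 0.658% of those called higher and 2 of the 32 (6.25%). A match describes the letters and is not a binding site. Of the factors, Mitf fell by 0.33 (SE 0.10) and Tfe3 by 0.35 (SE 0.08), both chosen after their values were seen. Neither passed with lane as a term, and no value is given for Tfeb. A link between these factors and the lysosomal genes was not tested. The 4 sequences shown were picked from genes that fell, 2 per motif, and are printed 5′ to 3′ along the gene's strand with the motif in capitals. Mmp12 is not a member of the lysosomal list. Genes called higher hold these letters too, 10 of them the E-box and 4 the M-box, and are not shown. Mmp12 (chr9:7347124-7347373, plus strand) and Grn, which encodes progranulin (chr11:102430257-102430506, plus strand), hold the M-box, and Ctsd (chr7:142387828-142388077, minus strand) and Atp6v1a (chr16:44139260-44139509, minus strand) the E-box.
Mmp12: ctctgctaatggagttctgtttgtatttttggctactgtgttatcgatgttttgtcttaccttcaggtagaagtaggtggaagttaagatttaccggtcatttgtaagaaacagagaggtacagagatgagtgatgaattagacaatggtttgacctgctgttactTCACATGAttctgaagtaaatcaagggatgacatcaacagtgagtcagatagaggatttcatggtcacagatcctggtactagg
Grn: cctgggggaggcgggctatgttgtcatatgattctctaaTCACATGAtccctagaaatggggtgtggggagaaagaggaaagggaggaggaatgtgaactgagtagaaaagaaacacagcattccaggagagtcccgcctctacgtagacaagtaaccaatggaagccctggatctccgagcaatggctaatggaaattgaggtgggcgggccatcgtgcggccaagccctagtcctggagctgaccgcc
Ctsd: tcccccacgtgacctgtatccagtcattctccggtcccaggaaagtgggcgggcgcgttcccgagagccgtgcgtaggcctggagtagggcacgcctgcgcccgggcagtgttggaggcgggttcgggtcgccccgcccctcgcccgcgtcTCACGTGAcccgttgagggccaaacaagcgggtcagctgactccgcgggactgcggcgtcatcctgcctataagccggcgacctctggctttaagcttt
Atp6v1a: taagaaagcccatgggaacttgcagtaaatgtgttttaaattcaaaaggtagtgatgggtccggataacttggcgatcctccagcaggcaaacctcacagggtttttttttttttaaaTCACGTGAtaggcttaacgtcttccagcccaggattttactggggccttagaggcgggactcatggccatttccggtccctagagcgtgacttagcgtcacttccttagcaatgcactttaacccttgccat
The motif ends 76 bases before the start site in Mmp12, 203 in Grn, 91 in Ctsd and 124 in Atp6v1a. Their log2 changes were -2.48 (SE 0.38), -0.84 (SE 0.15), -1.19 (SE 0.12) and -0.72 (SE 0.07).

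Antigen presentation genes were lower too. All 6 tested dendritic cell and MHC class II genes fell, also with lane as a term, with a median of -1.23. H2-Aa, a class II chain, was at 46.2, 54.0, 67.8, 61.9 and 47.5 with placebo and at 27.4, 19.7, 21.7, 14.6 and 18.0 with estradiol, without overlap. Of 10 tested chemokines and cytokines 5 fell and 1, Cxcl12, rose, and with lane as a term 4 fell and 0 rose. Ccl2, which draws monocytes into fat, was at 5.67, 4.92, 5.07, 2.10 and 3.28 with placebo and at 0.502, 0.148, 0.555, 1.11 and 0.378 with estradiol (-1.73, SE 0.22, adjusted p = 3.6e-05). Below the tested level, Tnf had a mean of 0.349 with placebo and 0.0452 with estradiol, and Ccl3 of 0.767 and 0.0716, each without overlap (exact permutation p = 0.0079). Il6 was at 0 in all estradiol libraries and in placebo 1, 2 and 5, and Il1b was highest in placebo 3, at 1.09 (exact permutation p = 0.44 and 0.60). Interferon response genes had 1 lower and 0 higher of 11 (median -0.12), and between 0 and 2 lower when 1 library was left out, and 0 with lane as a term. T cell and NK cell genes were too low to test, with 0 of 20 passing the filter and a summed level of 2.91 to 4.91 with placebo and 1.43 to 2.43 with estradiol.

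Complement genes moved in both directions: of 19 tested, 4 rose and 6 fell, and with lane as a term 3 rose and 4 fell. The C1q chains that macrophages make fell, C1qb by 1.25 (SE 0.21), as did the receptor genes C3ar1, by 1.56 (SE 0.21), and C5ar1, by 0.90 (SE 0.14). Cfd, the factor D of adipocytes, Cd55, which breaks up convertases, and C2 rose. Hp, the haptoglobin of adipocytes and liver, was at 275, 206, 128, 154 and 268 with placebo and at 56.7, 80.6, 69.0, 25.4 and 54.5 with estradiol (-1.86, SE 0.29, adjusted p = 0.00016).

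Collagen genes were lower, with 10 of 14 tested down and 1 up (median -0.55); with lane as a term 5 were down and 1 up (median -0.43). A constant sum gave 7 down and FPKM as deposited 0. Col3a1, of fibrillar collagen, was at 74.4, 57.6, 60.0, 31.8 and 56.8 with placebo and at 30.4, 22.8, 28.4, 20.8 and 20.5 with estradiol. The groups met at placebo 4 and estradiol 1 without overlapping (-1.12, SE 0.19, adjusted p = 0.00035). Col14a1, which binds along collagen fibrils, was the 1 that rose, by 0.49 (SE 0.16). Other matrix genes had 8 higher and 11 lower of 39 tested, and 6 of each with lane as a term. Timp1, an inhibitor of metalloproteases, was at 3.61, 2.01, 2.37, 1.32 and 2.10 with placebo and at 0.288, 0.230, 0.151, 0.136 and 0.0671 with estradiol (-1.45, SE 0.14, adjusted p = 4.0e-06). Its relative Timp4 rose by 0.96 (SE 0.18), as did Ogn, a small proteoglycan, by 0.90 (SE 0.15), Lama4, a laminin chain of vessel and adipocyte basement membranes, by 0.43 (SE 0.08), and Spon1. Adipose progenitor genes had 5 higher and 2 lower of 13 (median 0.16, and -0.08 on FPKM as deposited), and 3 and 0 with lane as a term; without estradiol 1, estradiol 3, placebo 3 or placebo 4, 2 were higher. Pi16, of the progenitors that lie between fat lobules, went from 4.20 ± 1.2 to 9.05 ± 2.8. Endothelial genes moved little, with 2 higher (1 without placebo 2 or 3 or estradiol 2 or 4, and 0 with lane as a term) and 1 lower of 19 (median -0.02). Cd93 fell by 0.69 (SE 0.08).

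Of 29 cell cycle genes 8 reached the tested level. Of these, 5 were lower and 1 higher (median -0.68), and 5 were lower and 0 higher with lane as a term. Mki67, which marks dividing cells, was at 1.81, 1.68, 2.53, 1.20 and 1.45 with placebo and at 0.349, 0.206, 0.233, 0.176 and 0.190 with estradiol. The lowest placebo library was above the highest estradiol library (-1.13, SE 0.11, adjusted p = 4.0e-06), and the LFD mean was 0.307. Mki67 reached the tested level of 1 in all 5 placebo libraries and in no estradiol library. It was thus tested through the placebo group, and a call could only be lower. Pcna, the clamp of DNA replication, fell by 1.00 (SE 0.10), Stmn1 by 1.21 (SE 0.13) and Ccnd1, cyclin D1, by 0.65 (SE 0.08), while Ccnd3 rose by 0.25 (SE 0.08). Top2a, below the tested level, had a mean of 0.882 ± 0.20 with placebo and 0.117 ± 0.023 with estradiol (exact permutation p = 0.0079). Unfolded protein response genes had 10 lower and 0 higher of 20 (median -0.24), 2 lower with lane as a term, 3 with a constant sum and 0 on FPKM as deposited. Hspa5, the chaperone BiP, fell by 0.51 (SE 0.09). Of 10 tested immediate early genes 3 fell, Atf3 by 1.68 (SE 0.16); the count was 1 without placebo 1, 2 or 3 or estradiol 2, 3 or 5, 5 without placebo 4, and 1 with lane as a term. Cytosolic ribosomal protein genes had 1 lower of 40 (median -0.05), 0 to 2 when 1 library was left out, and 0 with lane as a term.

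**Figure D5:**
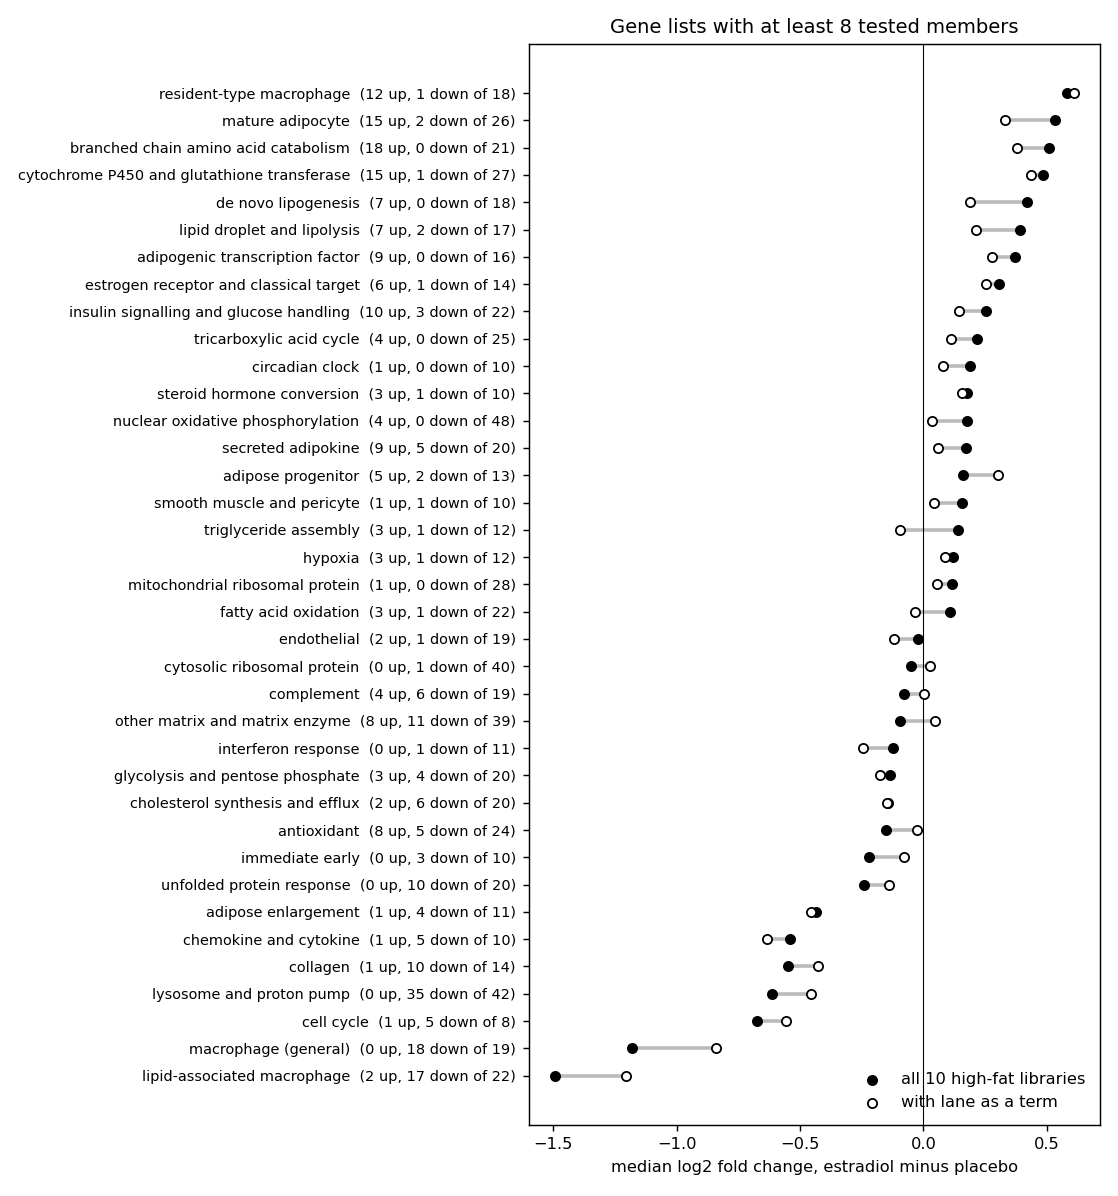
Median log2 fold change (x axis) of the tested members of gene lists with at least 8 of them, over the 10 high-fat libraries (filled) and with lane as a term (open), with the number of members that rose and fell beside each name. The list of androgen and glucocorticoid receptors and targets is left out (17 tested, 6 higher, 5 lower, median 0.026). Lipid-associated macrophages (-1.50) and resident-type macrophages (0.58) stand at opposite ends, and most open points lie nearer 0 than the filled ones.

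The LFD libraries give another level for the same genes, with no test here, since they lie on lane 5 and the estradiol libraries on lane 6, and since both comparisons would share the placebo libraries. For several genes the estradiol mean was near the LFD mean: 161 and 166 scaled FPKM for Adipoq, 26.4 and 23.1 for Lep, 14.0 and 14.8 for Plin2, and 984 and 980 for Car3. For others it was above both the placebo and the LFD mean, as in Gpx3 and Spon1, or at 21.9 against 13.2 for Igfbp4 and 3.86 against 2.07 for Irs1. For Fasn and Thrsp it was nearer the placebo mean: Fasn had means of 17.4 with placebo, 29.6 with estradiol and 115 in LFD, and Thrsp of 7.78, 25.3 and 86.0.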

How the data were processed

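Total RNA was sequenced from periprostatic fat of 15 mice in 3 groups of 5. The deposited values are FPKM per gene symbol (23995 symbols), which the authors made with STAR and Cufflinks on mm10, per the submitters' processing notes; versions are not given in the sources used here, nor how reads shared by near-identical genes were assigned. FPKM carry no counts, so no count test was run. The values were divided by median-of-ratios factors over 5874 genes (mean FPKM 1 or more). The 5615 genes that reached a scaled value of 1 in 5 or more libraries were tested as log2(scaled FPKM + 1) with limma 3.58.1 in R 4.3.3 (trend, robust), in 1 fit of all 15 libraries with group alone; adjusted p is Benjamini-Hochberg over the 5615. A gene can meet this filter through 1 group of 5 alone, and its call can then hardly go another way than that group's level. Mki67, Itgax, Ccl2, Timp1 and Tph2, for example, reached 1 in all 5 placebo libraries and in at most 1 estradiol library. Counts of called list members hold such genes. Tested on simulated data for this comparison over 5615 genes, the fit recovered 58% of changes of 0.5 and 100% of changes of 1 on the log2 scale.

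For 15 genes of interest below the tested level, exact two-sided permutation tests were run. Positions are those of GENCODE vM21 (GRCm38, the same build as mm10). Members and gene lists were chosen with earlier results of these data known, and lists share genes (Cfd is in 3 named here). Named genes were drawn by a rule, and not all that it gave are described. It took the 15 largest rises and falls that passed with lane as a term, had a mean of at least 2 and did not overlap. It also took up to 4 members of each list by adjusted p, members against the list's median, and genes of prior interest. Of the 15 falls, those described are Ubd, Ctss, Atp6v0d2 and Hp, at ranks 3, 4, 5 and 14, so the largest fall is not among them. Itgax, Plin1, Pnpla2, C1qb, Grn, Mir6236, Mitf and Tfe3 fell outside this rule and were chosen after their values were seen. P-values measure the spread between single mice. Other pseudocounts, filters, scalings, lane models, a replicate block and leaving out libraries were tried.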

Additional observations from a re-analysis of the deposited data

Results flagged for a closer look

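For the genes named in the text, 248 groups of 5 libraries were looked at for a library far from the rest of its group by Dixon's ratio, and 31 stood out; chance gives about 1 in 20 groups. Estradiol 1 stood out 12 times, in each case as the highest of its group, at 1.03 scaled FPKM for Atf3, 1.70 for Atp6v0d2, 1.90 for C3ar1, 3.36 for Cpt1a, 19.95 for Ctss, 4.12 for Hmox1, 1.64 for Itgax, 1.06 for Mitf, 8.79 for Mmp12, 0.731 for Nceh1, 2.23 for Pcna and 1.35 for Soat1. All 12 of these genes were lower with estradiol than with placebo.

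Placebo 4 stood out 9 times. It was the lowest of its group at 1.90 for Atf3, 2.11 for Itgax and 1.22 for Nceh1, and the highest at 8.68 for Aldh6a1, 3.19 for Ivd, 6.33 for Pde3b, 30.1 for Plin1 and 2.55 for Slc2a4, so that in these 8 genes it lay toward the estradiol group. For Esr2 it was the placebo library above 0, at 0.00272. Placebo 3 was highest for Ccl3 at 1.81, Il1b at 1.09, Il6 at 0.0822 and Tnf at 0.903, and lowest for Nrip1 at 1.74. Among the other libraries, estradiol 2 was high for Fasn at 50.7, estradiol 3 for Esr2 at 0.00915, and estradiol 5 for Mir6236 at 30720, Stxbp5l at 0.0256 and Ubd at 3.28.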

How the results depend on the processing

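Against 805 genes higher and 901 lower with estradiol, FPKM as deposited gave 13 and 263, a constant sum per library 259 and 569, lane as a term 317 and 394, lane 6 alone 299 and 382, a floor of 3 in 5 libraries 375 and 340 (fewer genes tested), and no filter 1096 and 1541 of 18599 genes. Genes called higher were 47.2% of calls in the main scaling, 4.71% as deposited (all tested genes then had a median of -0.27), 31.3% with a constant sum and 57.1% with upper quartiles. Why the scalings differ was not tested; the share of Mir6236 in the FPKM sums, given above, moves with group within lane 6. Counts of list members called moved by more than 1.5 times in 26 of 33 lists as deposited, 23 with lane as a term or lane 6 alone, 16 with a constant sum, 12 with the floor of 3 and 9 without placebo 4 and 5. Leaving out 1 library at a time gave 632 to 865 higher and 781 to 973 lower genes, and 6 to 7 of the 15 low genes, beside 6 with all. Of the 104 called genes named, 41 stayed called as deposited, 89 with a constant sum or lane as a term, 77 within lane 6 and 101 without placebo 4 and 5. These shares are partly set by the naming rule, which chose genes by adjusted p and by a pass with lane as a term. The sign turned once, for Ccnd3 as deposited (-0.024). Of the low genes with no call, leaving out 1 library moved the difference of Il1b between -0.27 and 0.0027 (turned without placebo 3) and that of Esr2 between -0.000544 and 0.00183 (turned without estradiol 3). Mir6236, also with no call, had a log2 change of -0.12 without estradiol 5 up to 0.67 without placebo 2, -0.087 as deposited and -0.68 without placebo 4 and 5, beside 0.25.

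Of the named genes, 8 lost their call without some library. Stab1 and Ccnd3 did so for 7 of the 10 (adjusted p up to 0.11 and 0.077), Apoe and Ephx1 for 5, Col14a1 for 4, Pparg for 4 (placebo 2 or 3, estradiol 3 or 5; up to 0.060), Mitf for placebo 1 or 2 (up to 0.056) and Gpd1 for estradiol 4 (0.052); the other 96 kept it. The numbers of the labels did not pair the samples: deviations of same-numbered libraries correlated at -0.13 to 0.16, 2 of 5 above 0.1. A replicate block gave 798 higher and 887 lower genes.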

Other observations

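Of 20 tested cholesterol handling genes, not described above, 6 fell and 2 rose with estradiol (median log2 change -0.14), and 4 fell and 1 rose with lane as a term. Nceh1 and Soat1, which take cholesteryl esters apart and make them, fell by 1.17 (SE 0.13) and 1.04 (SE 0.14), and the efflux transporter gene Abcg1 fell by 0.76 (SE 0.10). Npc2, which carries cholesterol out of lysosomes, was at 13.6, 15.6, 14.8, 14.7 and 13.8 scaled FPKM with placebo and at 8.41, 7.53, 8.05, 7.71 and 8.22 with estradiol, among the tightest separations of the named genes. Apoe and Fdft1 rose, by 0.46 (SE 0.15) and 0.30 (SE 0.07). Of 20 tested glycolysis and pentose phosphate genes 4 fell (2 without placebo 3) and 3 rose, and 1 fell and 1 rose with lane as a term. These counts are near the shares of all tested genes, of which 16.0% fell and 14.3% rose. Pkm, the pyruvate kinase gene, fell by 0.76 (SE 0.16), and G6pdx, which opens the pentose phosphate branch, rose by 0.50 (SE 0.13).

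A few genes stood out after their values were seen. Tph2, the tryptophan hydroxylase known from serotonin neurons, was at 2.99, 3.90, 1.35, 2.75 and 3.28 with placebo and at 0.0847, 0.145, 0.112, 0.0201 and 0.181 with estradiol, and its LFD mean was 0.0424 (log2 change -1.76, SE 0.14, limma adjusted p = 1.1e-06). Of 1706 called genes, 33 with an estradiol mean of at least 2 had all 5 estradiol libraries above all 10 placebo and LFD libraries. For 10 called genes with a placebo mean of at least 2, all 5 estradiol libraries lay below those libraries. All LFD and most placebo libraries lay on another lane than the estradiol libraries. Lane and group are therefore not separated in these counts, and the part of lane in them was not tested. Among the 33 were Il4ra, a receptor chain for interleukin 4 and 13, which rose by 1.07 (SE 0.12), and Plod2, a lysyl hydroxylase that prepares collagen for crosslinks, which rose by 1.20 (SE 0.11).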
